A study of Homo sapiens with 5 samples.

Results

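The regions described are the FOXO3A CUT&Tag peaks of THP-1 cells that lay in or beside a gene. A peak was taken where its summit, the position of highest signal, fell inside the span of a protein-coding or long non-coding RNA (lncRNA) gene of the RefSeq table or within 1000 bp of either end of one. Of 948 THP-1 peaks on chromosomes 1 to 22 and X, 287 met this rule (30.3%, exact 95% interval 27.4 to 33.3), and 661 did not. The study profiled FOXO3A in 2 human cell lines, THP-1, an acute monocytic leukemia line, and U-937, a line of monocyte-like cells. Both were grown in the same serum-containing medium with no treatment named in the labels. Of 3 THP-1 libraries, the files of replicates 2 and 3 listed 0 peaks, and of 2 U-937 libraries the file of replicate 2 listed 0. Every THP-1 value below therefore comes from replicate 1 and every U-937 value from replicate 1 of that line. Peaks of 1 library share their cells and reads and are not replicates, so no test was made between groups of peaks, and intervals cover only the spread or counting error over peaks of that library. Neither the labels nor the files give a control library for nonspecific signal.

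FOXO3A is a forkhead transcription factor. When growth factor signalling is low it stays in the nucleus and binds DNA at a core read as GTAAACA or a close variant. When the PI3K and AKT kinases are active they phosphorylate it and it is held in the cytoplasm. In blood cells it is known for controlling genes of cell cycle arrest, cell death, metabolism and oxidative stress defence. CUT&Tag directs a transposase to an antibody on chromatin and sequences the DNA cut there. A peak marks where such fragments piled up and does not by itself show which protein was bound.

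Few of these peaks lay on the promoter windows of RefSeq, which run from 250 bases before to 50 bases after an annotated start (300 bases, GRCh38.p14). In all, 22 of the 287 peaks overlapped 24 such windows, of 24 genes, and 9 windows held the summit itself. Of the 305 genes that these peaks lay in or beside, 229 had an entry in the table of windows. Promoters of genes without an entry could not be counted. No such share is given for the 661 other THP-1 peaks, so the count of 22 stands without a comparison. The 7 of those 9 that belong to protein-coding genes are printed because they are the cases where the peak maximum and a coding promoter coincide. The BRD3OS window was chr9:134025231-134025530 on the plus strand. That of TIMM13 was chr19:2427537-2427836 on the minus strand. That of SF3A2 was chr19:2236574-2236873 on the plus strand. That of HNRNPL was chr19:38849937-38850236 on the minus strand. That of CIC was chr19:42269002-42269301 on the plus strand. That of TEDC1 was chr14:105490996-105491295 on the plus strand. That of BRF1 was chr14:105300952-105301251 on the minus strand. Each is written 5′ to 3′ on the strand of its gene, with the bases covered by the THP-1 peak in capitals.
BRD3OS: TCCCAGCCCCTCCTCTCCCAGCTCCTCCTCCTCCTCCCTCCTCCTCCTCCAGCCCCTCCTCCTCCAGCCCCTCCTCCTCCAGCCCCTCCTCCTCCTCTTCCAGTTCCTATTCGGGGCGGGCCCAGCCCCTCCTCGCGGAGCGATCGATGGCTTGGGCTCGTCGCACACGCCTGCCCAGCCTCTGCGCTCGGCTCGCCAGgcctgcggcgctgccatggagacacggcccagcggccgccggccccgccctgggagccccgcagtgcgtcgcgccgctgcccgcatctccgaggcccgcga
TIMM13: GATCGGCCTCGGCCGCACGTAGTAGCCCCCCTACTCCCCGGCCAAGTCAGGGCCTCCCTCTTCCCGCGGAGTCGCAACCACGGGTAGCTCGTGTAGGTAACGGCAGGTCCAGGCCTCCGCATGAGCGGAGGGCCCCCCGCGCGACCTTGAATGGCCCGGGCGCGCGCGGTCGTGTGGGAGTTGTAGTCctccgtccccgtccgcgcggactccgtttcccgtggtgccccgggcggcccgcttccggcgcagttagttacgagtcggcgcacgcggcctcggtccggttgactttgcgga
SF3A2: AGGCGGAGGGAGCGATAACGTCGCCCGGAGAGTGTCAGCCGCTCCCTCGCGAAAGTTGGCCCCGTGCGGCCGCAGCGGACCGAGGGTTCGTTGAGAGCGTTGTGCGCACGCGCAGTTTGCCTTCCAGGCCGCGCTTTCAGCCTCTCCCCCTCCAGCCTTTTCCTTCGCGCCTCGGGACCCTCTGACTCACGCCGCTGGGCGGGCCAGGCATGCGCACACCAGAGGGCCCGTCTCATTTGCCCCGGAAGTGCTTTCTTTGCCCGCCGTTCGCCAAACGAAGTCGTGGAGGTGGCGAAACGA
HNRNPL: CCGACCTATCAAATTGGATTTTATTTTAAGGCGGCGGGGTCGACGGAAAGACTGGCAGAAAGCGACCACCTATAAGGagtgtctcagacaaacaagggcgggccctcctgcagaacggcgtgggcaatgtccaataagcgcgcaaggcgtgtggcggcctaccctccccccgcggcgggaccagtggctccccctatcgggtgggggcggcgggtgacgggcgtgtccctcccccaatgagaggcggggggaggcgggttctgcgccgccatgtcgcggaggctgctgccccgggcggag
CIC: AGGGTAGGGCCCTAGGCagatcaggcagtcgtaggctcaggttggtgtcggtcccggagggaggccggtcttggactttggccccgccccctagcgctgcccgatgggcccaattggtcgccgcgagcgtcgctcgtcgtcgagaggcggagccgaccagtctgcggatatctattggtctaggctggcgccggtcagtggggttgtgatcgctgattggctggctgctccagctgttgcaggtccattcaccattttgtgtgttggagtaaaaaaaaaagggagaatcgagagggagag
TEDC1: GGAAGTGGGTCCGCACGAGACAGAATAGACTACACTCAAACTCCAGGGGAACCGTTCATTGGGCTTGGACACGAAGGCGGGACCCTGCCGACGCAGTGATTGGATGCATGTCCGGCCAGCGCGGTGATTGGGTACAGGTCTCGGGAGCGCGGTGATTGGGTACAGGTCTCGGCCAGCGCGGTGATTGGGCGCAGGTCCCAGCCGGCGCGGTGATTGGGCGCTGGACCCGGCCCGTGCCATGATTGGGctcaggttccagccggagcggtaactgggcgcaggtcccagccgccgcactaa
BRF1: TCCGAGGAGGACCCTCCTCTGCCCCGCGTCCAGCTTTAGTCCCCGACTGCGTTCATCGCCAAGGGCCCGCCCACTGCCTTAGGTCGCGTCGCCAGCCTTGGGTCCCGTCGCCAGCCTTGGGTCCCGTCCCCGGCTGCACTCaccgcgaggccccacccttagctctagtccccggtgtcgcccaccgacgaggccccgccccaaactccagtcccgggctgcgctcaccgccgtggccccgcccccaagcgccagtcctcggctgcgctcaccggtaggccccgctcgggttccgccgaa
The summit lay 201 bases upstream of the annotated start of BRD3OS, 151 of TIMM13, 133 of SF3A2, 174 of HNRNPL, 241 of CIC, 113 of TEDC1 and 121 of BRF1. The starts used at HNRNPL, CIC, TEDC1 and BRF1 are internal ones, so these summits lay inside the gene span. They were 2187, 481, 1278 and 14467 bases from the nearer end of the respective gene. The peak covered all 300 bases at SF3A2 and only 17 at CIC. BRD3OS, a gene next to that of the chromatin reader BRD3, had a fold enrichment of 18.4, and the other 6 ranged from 4.35 at BRF1 to 5.55 at TIMM13. Those 6 were also overlapped by a U-937 peak, and that of BRD3OS was not. TIMM13 encodes a chaperone of mitochondrial protein import, SF3A2 and HNRNPL act in splicing of messenger RNA, CIC is a transcriptional repressor downstream of receptor kinases, and BRF1 is a subunit of the RNA polymerase III initiation factor.

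The 24 overlapped windows were rich in G and C, with a median of 67.7% (44.3 to 78) against 58.7% over the 34961 windows of the table. The ratio of observed to expected CpG dinucleotides had a median of 0.864 against 0.580. On either strand, GTAAACA was found in 0 of the 24 windows and in 3.42% of all windows. ATAAACA, a variant of the core that can overlap TATAAA by 5 bases, was found in 1 of 24 (4.17%) and in 4.23% of all. That match was in the promoter of FAM230E, a lncRNA gene on chromosome 22, where it began 49 bases before the start, on the strand opposite the gene and within the peak. The stretch is shown on the plus strand, with the match in capitals.
FAM230E: tcaccctggaaTGTTTATgccctatcgcc
The other letters searched were CCAAT, in 10 of 24 windows (41.7%) against 34.6% of all, TATAAA in 2 (8.33%) against 11.5%, and GGGCGG, the GC box, in 21 (87.5%) against 45.03%. A match only says that these letters occur in the window. Sequences of the peaks outside these windows were not used here, so the core was searched in these windows alone.

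Most of the peaks lay within genes and away from their ends. The summit was inside a gene span for 257 of 287 (89.5%, 85.4 to 92.8) and within 1000 bp outside one for 30 (10.5%). It was within 1000 bp of a start or end of a gene for 56 (19.5%), of a protein-coding gene for 37 (12.9%), and farther inside for 231 (80.5%). A protein-coding gene was host to 223 peaks (77.7%), of which 17 also had a lncRNA host, and 64 (22.3%) had a lncRNA host only. A single host was found for 248 peaks and a pair for 39. The rule's limit was close to a few peaks: the last inside were those at CCDC200, LOC101928626 and TAF11L6, at 884, 931 and 1000 bp outside the gene, with fold 7.08, 7.10 and 8.79. The first beyond it were at 1046 bp from LINC01298, 1105 bp from TNFRSF18 and 1110 bp from LOC107987020, with fold 4.90, 7.54 and 4.48.

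Fold enrichment, the deposited ratio of signal at a peak to its background, had a median of 6.62 (95% interval of the median 6.27 to 7.10) and ran from 3.17 to 33.7. The 661 peaks away from genes had a median of 6.87 (6.43 to 7.22), and these intervals overlap. Median width was 424 bp (394 to 475) against 479 bp (453 to 513), and these intervals overlap too. In the peaks in or beside genes, 23 of 287 (8.01%) were wider than 1000 bp against 121 of 661 (18.3%). They were also more scattered than the others. Another THP-1 peak lay within 10 kb of 21 of 287 (7.32%, 4.59 to 10.97), against 284 of 661 (43.0%, 39.2 to 46.8). The fold, p and q of another THP-1 peak were repeated exactly at 51 (17.8%) against 174 (26.3%).

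**Figure D1:**
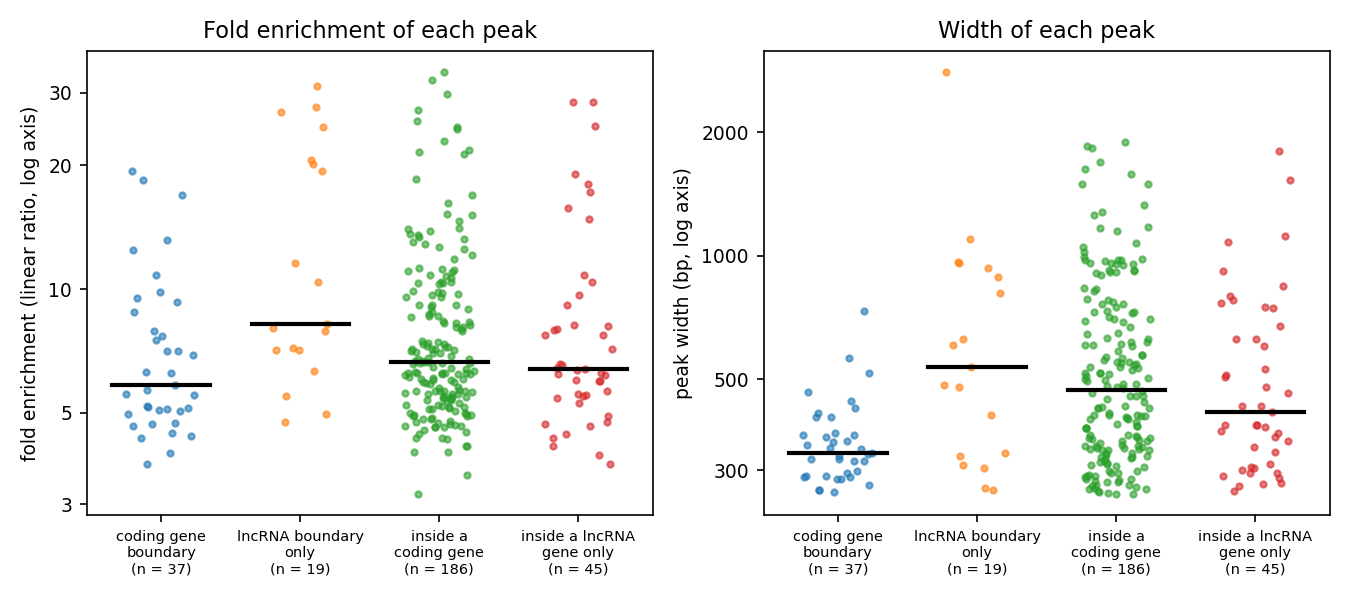
Fold enrichment (left, linear ratio on a log axis) and width in bp (right, log axis) of the 287 THP-1 peaks in or beside genes, by place. Each point is a peak and each bar a median. The 37 peaks at the boundary of a coding gene have the lowest medians, 5.86 and 330 bp, and the 19 at a lncRNA boundary only the highest, 8.24 and 534 bp.

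By place, the 37 peaks at a protein-coding boundary had a median fold of 5.86 (5.14 to 7.51) and a median width of 330 bp (315 to 362), and the widest was 733 bp. The 186 farther inside coding genes had medians of 6.64 and 471.5 bp and reached 1891 bp. The 45 inside lncRNA genes only had 6.41 and 416 bp. The 4 classes overlapped over most of their range of fold.

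The hosts numbered 305 genes: 217 of 19817 protein-coding genes (1.1%) and 88 of 17904 lncRNA genes (0.492%). Coding hosts were long. Their median span was 70.9 kb against 24.5 kb for all coding genes, and 94 of 217 (43.3%) were over 100 kb against 16.9% of all. Genes over 100 kb hold 66.5% of the summed length of coding genes, so the hosts had a smaller share of long genes than that length alone holds. LncRNA hosts had a median span of 23.6 kb against 9.13 kb. Within the 152 coding-host positions of known strand that lay over 1000 bp from both ends, the median position was 0.586 of the way from start to end, with 41 in the first part of the gene when cut in 3 equal parts, 49 in the middle and 62 in the last.

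Among the longest hosts, PTPRT, a receptor tyrosine phosphatase of 1158 kb, had a peak with fold 4.69, and DPP6, an auxiliary subunit of potassium channels spanning 1146 kb, one with fold 7.02. CACNA1C, a calcium channel subunit gene of 727 kb, had 13.3, and CELF2, a splicing regulator gene of 874 kb, 10.4. ESRRG, a nuclear receptor gene of 634 kb, had 4.90, near the lower end. In all, 19 hosts were longer than 500 kb. They were 18 coding hosts (8.29%, against 1.58% of all coding genes) and 1 lncRNA host (1.14%, against 0.240% of all lncRNA genes).

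The highest fold was 33.7, at chr2:113602929-113603486 inside LOC124907874, a predicted coding gene. That peak also overlapped the pseudogene DDX11L2. Fold was 29.8 at TUBB8B, a beta-tubulin gene at the tip of chromosome 18, 27.3 at TJP1, a tight-junction scaffold, and 25.6 at LYPD8, an intestinal surface protein. At RTEL1, a helicase that maintains telomeres, it was 24.8. EML1, a microtubule-binding protein, had 24.4 and MAP3K15, a stress-activated kinase, 22.9. SOX1-OT, a lncRNA gene overlapping that of a neural transcription factor, had 28.5. Of the 15 highest, 7 lay at genes with a LOC symbol only, and of all 287 peaks 50 had a host with such a symbol. Of 12555 genes with such symbols 52 were hosts (0.414%), and most of these hosts were lncRNA genes. The share was 0.492% for all lncRNA genes, 1.1% for all coding genes and 0.809% for both kinds together. In all, 20 of 287 (6.97%) reached a fold of 20, against 48 of 661 peaks away from genes (7.26%). The widest peaks were at LINC01409 (2805 bp), FOXN3 (1891 bp), EXD3 (1847 bp), SCNN1D (1826 bp) and LINC01237 (1794 bp). The narrowest, at TRPM2 and CSGALNACT2, measured 262 bp.

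Peaks at nuclear copies of mitochondrial genes made up 6 of 287 (2.09%, 0.771 to 4.49), against 7 of 661 (1.06%). Among them were those in JAK2, a cytokine receptor kinase (fold 21.8, at MTCO1P11), RGPD2 (8.59, at MTATP8P2 and MTATP6P28), LOC101928626 (7.10, at MTND2P28), AKAP6, a kinase anchor (5.18, at MTCO1P2), and KIAA0825 (3.54, at MTCYBP35). Such copies resemble mitochondrial DNA, and no source used here states how reads with several matches were handled.

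Close to chromosome ends the peaks were frequent. The end was taken as the outermost protein-coding or lncRNA gene at either end of each chromosome in the table. Peaks beyond that gene were counted as lying at the end. Within 5 Mb of an end lay 141 of 287 peaks (49.1%, 43.2 to 55.1), against 126 of 661 THP-1 peaks away from genes (19.1%, 16.1 to 22.3) and 236 of 1891 U-937 peaks in or beside genes (12.5%, 11.02 to 14.1). Of all 37721 protein-coding and lncRNA genes, 13.5% lay that close, and of the merged sequence of their spans 8.25%. Within 1 Mb lay 68 peaks (23.7%), against 9.83%, 3.01% and, for genes, 3.39%. Within 0.1 Mb the order against the other THP-1 peaks was reversed, with overlapping intervals. By the rule, peaks in or beside genes could not lie more than 1000 bp beyond the outermost gene, while the other THP-1 peaks could. The order at this distance therefore depends in part on the definitions. There lay 11 of 287 (3.83%, 1.93 to 6.75) against 41 of 661 (6.20%, 4.49 to 8.32), with 0.264% for the U-937 gene peaks and 0.398% for genes. The median distance was 5.28 Mb, against 37.2 Mb for the other THP-1 peaks, 27.6 Mb for the U-937 gene peaks and 27.5 Mb for genes. Counted by gene, 139 of 5088 genes within 5 Mb of an end were hosts (2.73%), and 166 of 32633 farther in (0.509%).

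**Figure D2:**
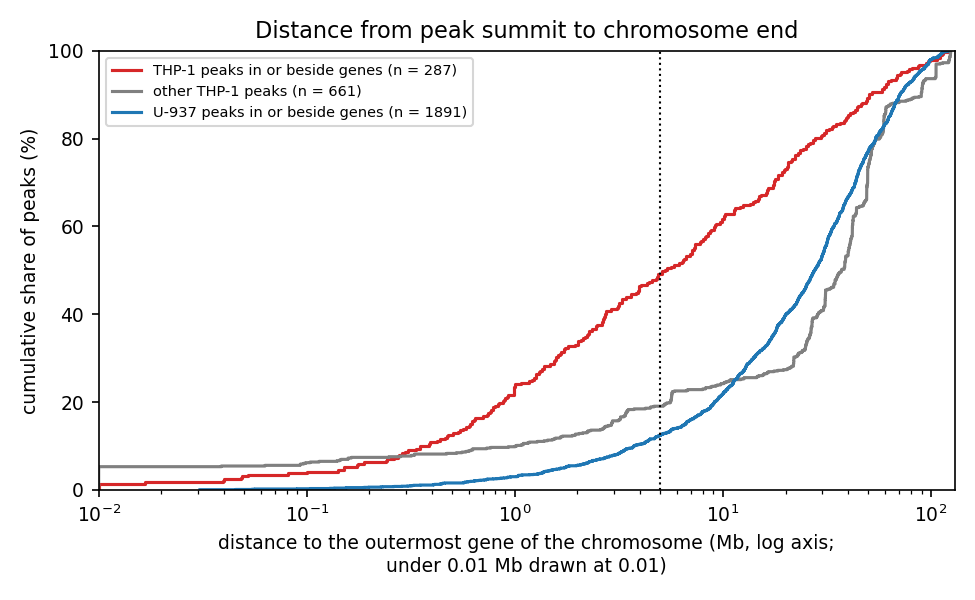
Cumulative share of peaks (%) by distance from the summit to the outermost gene of the chromosome (Mb, log axis), with a dotted line at 5 Mb. Peaks beyond that gene are counted as lying at it. At that line the THP-1 peaks in or beside genes stand at 49.1%, other THP-1 peaks at 19.1% and U-937 peaks in or beside genes at 12.5%.

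Near the ends the peaks were wider, while the intervals of their fold overlapped those of the peaks farther in. The 141 had a median fold of 6.32 (5.92 to 7.13) and the 146 farther in 6.96 (6.31 to 7.49). Their median widths were 484 bp (427 to 574) and 385.5 bp (353 to 424). The share within 5 Mb was 44.6% for the peaks at gene boundaries and 50.2% for those away from them. Coding hosts near the ends included TUBB8B, LYPD8, RTEL1, DUX4, CFAP46 (a ciliary protein, fold 16.2), CLPTM1L (a membrane protein next to the telomerase gene, 14.1), DOCK8 (an exchange factor of leukocytes, 13.8) and CACNA1C.

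Single megabases held several peaks. The most were in chr20:63000001-64000000, which held 8 peaks and 58 protein-coding and lncRNA genes. All 8 peaks were in or beside genes. Among the hosts were EEF1A2 (a translation elongation factor), PTK6 with SRMS (a pair of neighbouring tyrosine kinases) and RTEL1. Others were ZGPAT and ZBTB46 (transcriptional regulators), SLC2A4RG and UCKL1 (an enzyme of pyrimidine salvage). The folds of the 8 peaks ran from 4.65 to 24.8, with a median of 5.95. The next was chr1:2000001-3000000 with 6 peaks, all in TTC34, and 36 genes. The first megabase of chromosome 19, with 46 genes, and chr7:158000001-159000000, with 9 genes, followed with 5 peaks each. The 287 peaks fell in 216 such bins, and 15 bins with 3 or more held 57 of them. By chromosome, 19 had 27 peaks, 1 had 26 and 2 had 25. Per 1000 genes the highest were chromosome 21 with 16.2, 20 with 14.5 and 19 with 14.3, and the lowest chromosome 3 with 1.87.

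Several peaks fell in the same gene at 13 of the 305 hosts. TTC34, a gene of 164.7 kb on chromosome 1 encoding a tetratricopeptide repeat protein, held 6, with folds of 4.31, 5.46, 5.61, 5.64, 7.37 and 7.38. They lay 0.272 to 0.907 of the way along the gene. PTPRN2, a phosphatase-like protein of secretory vesicles spanning 1049 kb on chromosome 7, held 4, with folds of 4.996, 5.19, 5.78 and 8.69. All 4 lay past the midpoint of its span, on the side of the chromosome end. LINC01237 held 3 over 197 kb, with folds of 7.19 close to its start, 21.3 and 6.54.

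DUX4, the double homeobox gene of a macrosatellite repeat near the end of chromosome 4, held 3 peaks within 12.1 kb. Their folds were 3.17, 16.9 and 4.43, and the first was the lowest of all 287. The −log10 q of these peaks was 27.3, 623 and 54.7, where the peak at GSK3B, with a fold of 3.77, had 1.39. The repeat exists in many near-identical copies, and reads cannot be assigned with certainty to this one.

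The other 9 genes held a pair of peaks each. At ELL, an elongation factor of RNA polymerase II and a fusion partner in acute leukemia, a peak of fold 10.8 lay just past the end of the gene and one of 4.98 lay just before its start. GPR35, a receptor of immune and gut cells, had 15.1 and 6.23, and TRPM2, a calcium channel of phagocytes opened by oxidative stress, 10.6 and 6.61. RASA3, a negative regulator of RAS and RAP, had 4.17 and 8.29, and CD5, a lymphocyte surface receptor, 4.99 and 6.06. The pairs at GALNT9 (6.68 and 4.66), LMF1 (8.36 and 4.96), OR2A1-AS1 (4.90 and 4.36) and RPH3AL (6.26 and 6.28) completed the set. Those at RPH3AL and GALNT9 were close neighbours, and the ones at ELL, LMF1 and OR2A1-AS1 lay far apart.

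**Figure D3:**
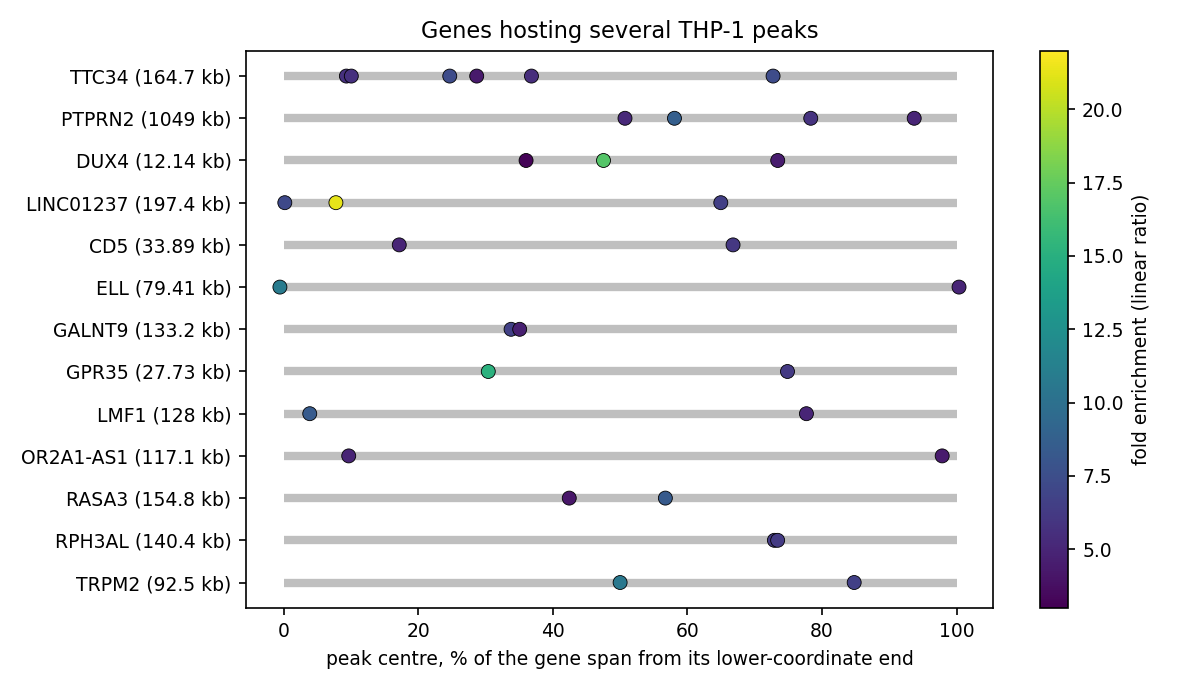
Place of each THP-1 peak along the 13 genes that host several, in percent of the gene span from the end with the lower coordinate, coloured by fold enrichment (linear ratio). TTC34 holds 6 peaks and PTPRN2 4, and the highest fold, 21.3, is in LINC01237.

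At the boundaries of coding genes, 37 peaks reached 44 genes, 8 of them serving 2 genes at once. Counted as pairs of gene and peak, and by whichever boundary was nearer, 27 were at a start, 9 at an end and 9 at a gene whose strand the tables used do not give. In short genes both can be near: H4C4, H2BC11 and H2BC26, counted here at the end, were also within 1000 bp of their start. At UBB, also counted at the end, the start of the gene span was farther off. There the summit lay 969 bp past an annotated start inside the span. The fold of the 37 ran from 3.77 at GSK3B to 19.4 at H2AC12 with H2BC12. BRD3OS had 18.4, UBB, a polyubiquitin gene, 9.84, and RAB8A, a small GTPase of vesicle traffic, 5.05. Pairs of coding genes at one peak were LMNB2 (a nuclear lamin) with TIMM13 (5.55), STK16 with TUBA4A (5.70), PLEKHJ1 with SF3A2 (5.19), NDUFA11 (a subunit of mitochondrial complex I) with VMAC (4.71) and PTK6 with SRMS (7.51). TAF11L3 had 12.4, GAGE2A, a cancer-testis antigen gene, 9.52, USP17L22 9.28 and TAF11L6 8.79. These 4 belong to families of near-identical copies. CCDC200 and LOC101929601 had 7.08, FAM86B1 6.92, CEP131, a centrosomal protein, 6.29, and RCN2, a calcium-binding protein of the endoplasmic reticulum, 6.26. CIMAP1D had 5.86, GPR137 5.53, TNFSF8, the ligand of CD30, 5.14, ATP8B3 5.10 and TAF11L5 5.08. The lowest beside GSK3B were SIVA1, a proapoptotic protein, with 4.47, NAIF1 with 4.39, PACS2 with 4.35 and MMD2 with 4.01.

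Against all annotated starts in the promoter table, including those inside a gene, 42 peaks (14.6%, 10.8 to 19.3) had a summit within 1000 bp. It was upstream for 27, at a median of 337 bp, and downstream for 15, at 419 bp. Of the 42, 8 were away from every boundary of a gene span because the start is an internal one, such as those at HNRNPL, HNRNPUL1 and TEDC1. A U-937 peak overlapped 14 of the 27 upstream and 1 of the 15 downstream, which was STK35. The 14 lay 113 to 526 bp before the start. Without the peak upstream of H2BC12, which lies within H2AC12, the other 13 had folds from 4.16 to 5.55, in the lower part of the THP-1 range. The 13 upstream peaks that no U-937 peak overlapped had a median fold of 7.08.

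**Figure D4:**
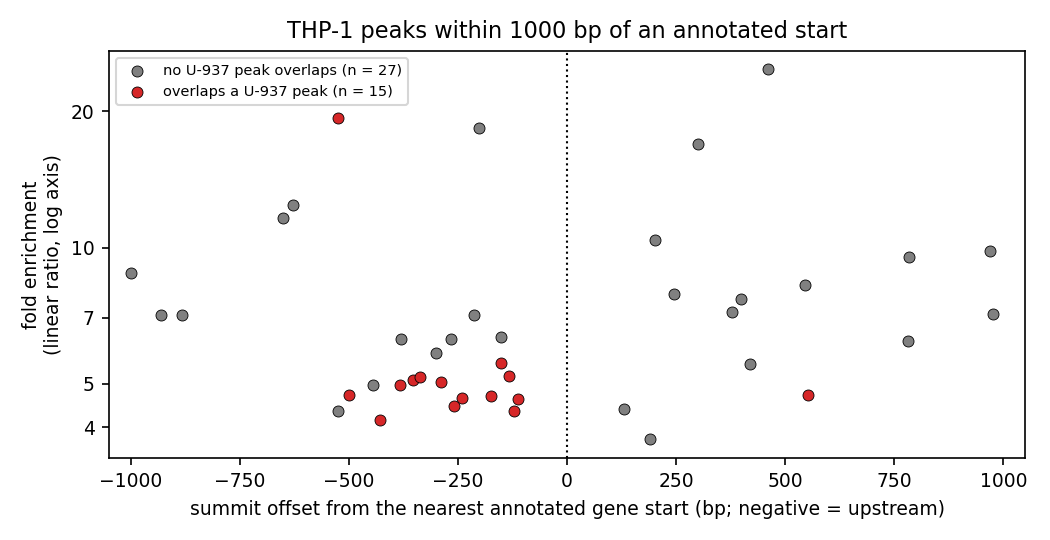
Fold enrichment (linear ratio, log axis) of the 42 THP-1 peaks within 1000 bp of an annotated start, by the offset of the summit from that start in bp, negative upstream. Red points, which overlap a U-937 peak, number 15, and 14 of them are upstream, between 113 and 526 bp.

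Histone genes, most of which lack introns and are transcribed in S phase, gave the largest number of boundary hosts among the coding families listed by symbol. They were 8 of 69 genes with canonical histone symbols (11.6%), on 5 peaks. Of all 19817 coding genes 1.1% were hosts at any place and 44 genes were hosts at a boundary. The folds were 19.4 at H2AC12 and H2BC12, 17.0 at H2AC11 and H2BC11, 13.2 at H3C12, 7.91 at H4C4 and 7.70 at H2AC25 with H2BC26. The first 4 peaks were on chromosome 6 and the last on chromosome 1. The peaks measured 299 to 353 bp and covered most of a gene body each: 74.2% of H4C4, 71.1% of H2BC26, 70.9% of H2AC12, 66.5% of H2BC11 and 66.0% of H3C12. H2AC25, H2AC11 and H2BC12 had no base covered and were counted because a summit in the neighbouring histone gene lay within 1000 bp. The genes of this family resemble each other closely in sequence.

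The other families listed by symbol gave between 0 and 4 hosts each among coding genes, to be read beside the 1.1% of all coding genes. Of 509 ZNF zinc finger genes 4 were hosts (ZNF407, ZNF385B, ZNF236 and ZNF469, with folds of 4.01 to 5.89), a share of 0.786%. Of 23 tubulin genes 2 were hosts (8.70%), TUBB8B with fold 29.8 and TUBA4A with 5.70. Of 32 receptor tyrosine phosphatase genes 2 were hosts (6.25%), PTPRN2 and PTPRT. There were 0 hosts among 387 olfactory receptor, 80 ribosomal protein, 71 protocadherin, 67 ANKRD, 49 TBC1D, 38 GOLGA and 22 HLA genes. Families of 80 genes or fewer can readily give 0 hosts at a share of 1.1%, and no family was tested. LINC genes gave 11 hosts of 2303 (0.478%) and antisense lncRNA genes 10 of 2046 (0.489%), both close to the 0.492% of lncRNA genes as a whole.

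Some families were noticed among the hosts after their values were seen, so their shares are high by that choice beside the 1.1% of coding and 0.492% of lncRNA genes. Of 4 FAM157 lncRNA genes 3 were hosts (75%), each within 5 Mb of a chromosome end: FAM157B with fold 20.1, FAM157A with 19.01 and FAM157C with 18.0. Of 13 TAF11L genes, near-identical relatives of a TFIID subunit, 3 were hosts (23.1%), with folds of 5.08 to 12.4. Mucin genes gave 3 of 20 (15.0%), with folds of 12.6 at MUC3A, 5.96 at MUC6 and 5.64 at MUC4. Collagen genes gave 4 of 53 (7.55%), with folds of 5.10 to 10.4. Of 66 genes with FOX symbols, antisense genes included, 4 were hosts (6.06%) on 2 peaks, at FOXN3 (fold 15.2, 1891 bp wide) and at FOXK2 (10.3), each with an antisense gene. In families of near-identical copies the host named is the one to which the reads were assigned.

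Among gene lists of the FOXO pathway and of these cells, hosts were counted against the 1.1% of all coding genes. Of 47 textbook FOXO targets 1 was, INSR, the insulin receptor gene, whose peak lay inside the gene with fold 8.02, a share of 2.13%. Of 37 genes of PI3K, AKT and mTOR signalling 2 were hosts (5.41%): RPTOR, the scaffold of mTOR complex 1, with fold 11.2 inside the gene, and GSK3B, a kinase that AKT inhibits, with 3.77. The summit counted for GSK3B lay 846 bp outside that gene, before its start. It was inside the neighbouring lncRNA gene GSK3B-DT, 189 bp past the start of that gene. Its −log10 q of 1.39 was the lowest of the 287 peaks, shared with the peak at LINC01443. Of 32 genes recurrently mutated in acute myeloid leukemia 1 was a host (3.13%), JAK2, at the mitochondrial copy given above. No host was among 38 monocyte and granulocyte genes, which allows a share of up to 7.89%, 36 myeloid transcription factors (8.33%), 43 cell cycle genes (6.98%), 25 hepatocyte genes or 25 genes of common fragile sites (12% each). With 0 to 2 hosts in each of the lists given, these counts are descriptions, and no list was tested.

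Overlap with U-937 was found at 23 of the 287 peaks (8.01%, 5.15 to 11.8), counting 1 shared base or more. Over all 948 THP-1 peaks 25 overlapped a U-937 peak (2.64%), so that all but 2 of those were in or beside genes. Of the U-937 peaks 83.2% were in or beside genes by the same rule. Within the 287, overlap was found at 12 of 37 peaks at coding boundaries (32.4%, 18.0 to 49.8) and at 11 of 231 away from boundaries (4.76%, 2.40 to 8.36). Chromosome 19, with 27 of the 287 peaks, held 11 of the 23 overlapping ones, among them the boundary peaks at HDGFL2, RAB8A and CIC. The contrast by boundary was not split by chromosome. The summits of the overlapping peaks were 0 to 499 bp apart, with a median of 111 bp, and the median overlap was 298 bp. At STK35, a nuclear kinase, both summits were at the same base.

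These peaks were low in the THP-1 list and high in that of U-937. Their median fold was 5.10 in THP-1, with 17 of 23 below the middle of that list, and 8.98 in U-937, with 20 of 23 above that list's median of 6.16. Fold is compared here only within each list. CIC had 4.65 in THP-1 and 14.4 in U-937, at percentiles 17.1 and 99.7 of the respective lists. NDUFA11 with VMAC had 4.71 and 13.1, ELL 4.98 and 15.3, HNRNPL 4.69 and 10.5, and HDGFL2, a chromatin-binding protein, 5.18 and 12.4. FSTL3, an activin-binding protein, had 7.16 and 11.5, and PSTPIP1, a cytoskeletal adaptor of leukocytes, 5.27 and 7.08. The opposite order was seen at 3 peaks. LOC124907874 had 33.7 and 5.87, with an overlap of only 33 bp and summits 499 bp apart. H2AC12 had 19.4 and 7.51, with an overlap of 28 bp and summits 350 bp apart. PLEKHJ1 with SF3A2 had 5.19 and 4.805, at percentiles 27.0 and 22.3. The overlap also included RGPD2 (8.59 and 22.03) and AKAP6 (5.18 and 20.4), both at mitochondrial copies. Of the 23, 11 lay within 5 Mb of a chromosome end.

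**Figure D5:**
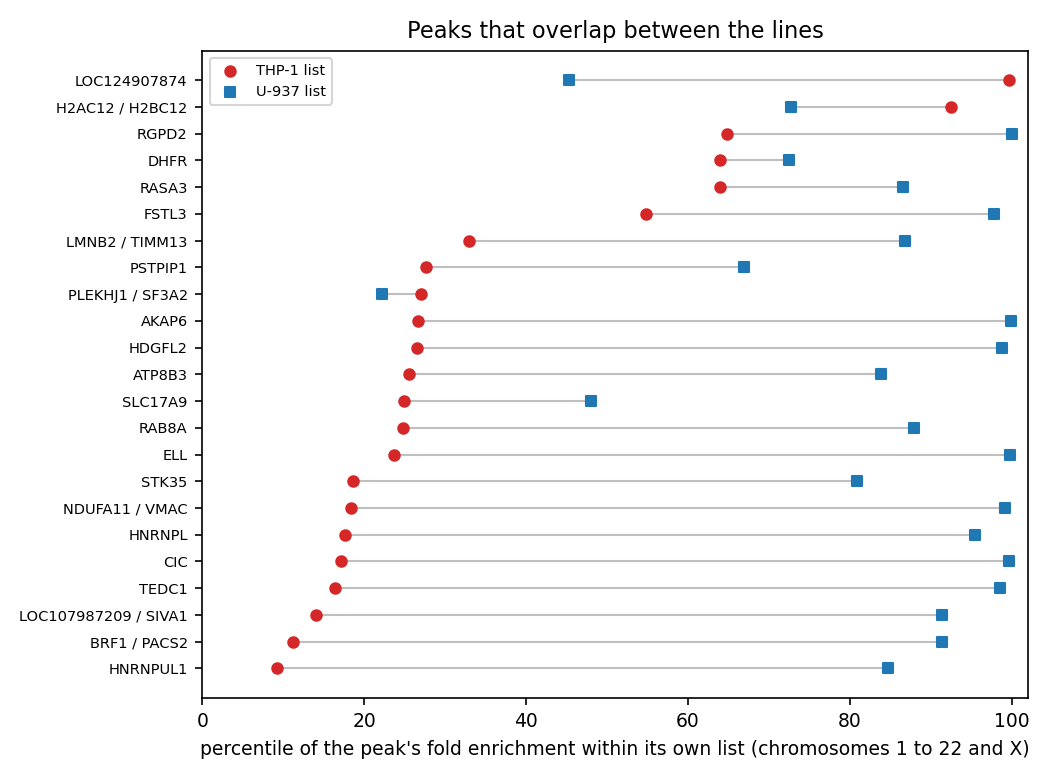
Percentile of fold enrichment of the 23 overlapping peaks within the THP-1 list (circles) and within the U-937 list (squares), 1 line per peak, labelled by host gene. The median percentile is 25.5 for the circles and 87.9 for the squares, and only LOC124907874, H2AC12 with H2BC12, and PLEKHJ1 with SF3A2 have the circle to the right.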

How the data were processed

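FOXO3A CUT&Tag libraries of THP-1 (3) and U-937 (2) were deposited as narrow peak lists. Alignment tools named are Bowtie2 and Picard, with build hg38, per the submitters' processing notes. Neither their versions nor the peak caller and its background are stated in the sources used here. Peak names within the THP-1 file carry another code than its title, and the file was taken by its deposited sample. The deposited columns used were the authors' fold enrichment (a linear ratio), −log10 p and −log10 q, and the integer score was not used. Depth is unknown, since the lists hold no read counts.

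Summits were matched with Python 3.11.15 (pandas 2.3.3, NumPy 2.4.6, SciPy 1.17.1, matplotlib 3.10.9) to 37721 protein-coding and lncRNA genes of the RefSeq table (GRCh38.p14), which gives no exons. Strand came from its promoter table, which had an entry for 229 of the 305 hosts, so exonic, intronic and UTR positions were not assigned. Intervals of shares are exact binomial (Clopper-Pearson) and those of medians come from order statistics, both at 95%. The upper share allowed by a count of 0 uses 3 counts. The matching was tested on simulated peaks. The settings tried were windows of 0, 500 and 3000 bp, −log10 q of at least 5, protein-coding hosts only and a few others. The promoter windows used hold none of chromosome 8. Genes named were the hosts with several peaks, the highest and lowest folds and widths, those at coding boundaries, the overlapping peaks and list members; further names were chosen after their values were seen. A few hosts and lists are not reported here. The members and lists were chosen with earlier results of these data known.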

Additional observations from a re-analysis of the deposited data

Results flagged for a closer look

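The THP-1 list also held 245 peaks on unplaced or alternate contigs and 89 on chromosome Y, outside the chromosomes analysed. None of the 89 was in or beside a protein-coding or lncRNA gene by the same rule (0 of 89). The U-937 list held no peak outside chromosomes 1 to 22 and X.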

How the results depend on the processing

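Of 60 values recomputed under other settings, 53 stayed close to the reported one and 7 moved. Close means within 1.5 times for a count, and within the 95% interval of the reported value for a median or the share near chromosome ends. The number of peaks at a gene boundary, 56, was 35 with a window of 500 bp, 121 with 3000 bp and 37 with protein-coding genes only, which follows from how a boundary is defined; a window of 0 bp gives no such count. With only peaks of −log10 q of at least 5, the median fold was 7.50 and the median width 486.5 bp, 7 genes held several peaks in place of 13, and 12 peaks overlapped U-937 in place of 23; the cause was not tested. The share within 5 Mb of a chromosome end, 49.1%, was 50.4% at that q, 48.0% with protein-coding hosts only, 47.4% without peaks that have another within 10 kb and 44.7% without hosts of several peaks; these 4 settings were chosen after seeing the data. No paired analysis was possible because only 1 library of each line held peaks, and for the same reason no replicate could be left out.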
